A study of Mus musculus with 32 samples.

Results

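Complement components and receptors were followed in mouse quadriceps through 9 genes named for this purpose: C1qa, C1qb, C1qc, C2, C3, C4b, Cfb, Serping1 and C3ar1. They were found by gene name among the 53801 gene IDs of the deposited tables, and each matched 1 ID. Muscle came from wild type (WT) mice and from Col6a2-/- mice, which are homozygous for the knockout allele Col6a2tm1(KOMP)Vlcg of a gene for a collagen VI chain. Mice were female (F) or male (M) and 5 or 25 weeks old, which gave 8 groups of 4 mice and 32 libraries, 1 per mouse. Per the labels, the allele was made on C57BL/6N and carried onto C57BL/6J by 5 generations of backcrossing, and both genotypes were bred from heterozygous parents. All mice were untreated. RNA was taken from sections of frozen whole muscle, so every cell type of the tissue contributed, and fewer cells of a type cannot be told apart from less RNA per cell.

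Complement is a cascade of plasma and tissue proteins that tags targets and calls in phagocytes. In the classical pathway C1q binds a target, its proteases C1r and C1s cleave C4 and C2, and the products form a convertase that cleaves C3. In the alternative pathway factor B, with factors D and properdin, forms a second C3 convertase that amplifies the reaction. The C1 inhibitor encoded by Serping1 blocks C1r and C1s, and C3ar1 encodes the receptor for the C3a fragment. C1q is known as a product of tissue macrophages, whereas C3, C4 and factor B are made in large amounts by hepatocytes and also by stromal cells and adipocytes in other tissues.

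All 9 genes lie on the minus strand of the genome build GRCm38. The 3 C1q genes are neighbours on chromosome 4, with C1qb at 136880129 to 136886187, C1qc at 136889804 to 136893065 and C1qa at 136895917 to 136898803. Another 3 are close together on chromosome 17 in the major histocompatibility region: C4b at 34728380 to 34743882, Cfb at 34856374 to 34862518 and C2 at 34862604 to 34898265. C3 is elsewhere on chromosome 17 (57203970 to 57228136), Serping1 on chromosome 2 (84765387 to 84775444) and C3ar1 on chromosome 6 (122847138 to 122856161). RefSeq promoter windows of 300 bases (250 before to 50 after the start, GRCm38.p6) were matched for 4 of the 9 members. The windows of C1qb and C1qc are shown because the changes of these neighbours were alike in every comparison, and that of C3 because it rose with age where they fell in Col6a2-/- mice.
C1qb (chr4:136886151-136886450, minus strand): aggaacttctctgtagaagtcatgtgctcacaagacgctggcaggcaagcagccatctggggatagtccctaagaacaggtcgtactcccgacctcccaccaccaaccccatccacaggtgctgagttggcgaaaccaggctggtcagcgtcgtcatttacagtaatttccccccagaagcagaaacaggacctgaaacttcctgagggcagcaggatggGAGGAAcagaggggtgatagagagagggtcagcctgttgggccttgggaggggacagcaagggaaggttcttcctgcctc
C1qc (chr4:136892865-136893164, minus strand): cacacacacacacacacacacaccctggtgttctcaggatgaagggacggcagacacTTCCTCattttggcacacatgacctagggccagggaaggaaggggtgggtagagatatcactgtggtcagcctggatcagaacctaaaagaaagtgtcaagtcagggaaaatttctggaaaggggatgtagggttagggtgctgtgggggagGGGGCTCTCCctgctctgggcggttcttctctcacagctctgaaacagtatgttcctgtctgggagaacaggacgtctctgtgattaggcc
C3 (chr17:57228087-57228386, minus strand): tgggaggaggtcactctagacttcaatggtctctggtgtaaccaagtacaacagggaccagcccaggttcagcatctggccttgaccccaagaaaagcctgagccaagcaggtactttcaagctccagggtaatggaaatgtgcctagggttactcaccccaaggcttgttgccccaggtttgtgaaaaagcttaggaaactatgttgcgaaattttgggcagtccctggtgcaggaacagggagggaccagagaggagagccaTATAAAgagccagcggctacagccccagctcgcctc
Capitals mark matches to the 6 motifs searched on both strands. C1qb and C1qc each held 1 match to GAGGAA, the core bound by the myeloid factor PU.1, at position -30 on the plus strand of the window in C1qb and at position -193 on its reverse strand (TTCCTC) in C1qc. That core was found in 28.3% of 32851 promoter windows of the same length. C1qc also held 1 match to the NF-kappaB motif, at position -41, which 8.46% of windows hold, and C3 held TATAAA at position 14, which 13.6% hold. No match to the interferon-stimulated response element (in 3.44% of windows), the gamma-activated site TTCNNNGAA (8.30%) or CCAAT (37.4%) was found in these 3 windows. A match describes the sequence only.

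Values are TPM, a transcript abundance per length scaled to the same total in every library, as the authors computed them. Changes are differences of group means of log2(TPM + 1), which understate the change of genes at low TPM. They were tested with limma across the 12817 genes that reached 1 TPM in 4 or more libraries, and a gene is said to be called where the Benjamini-Hochberg adjusted p was under 0.05. All 9 members passed this filter. C3ar1 reached 1 TPM in 1 of 16 WT and 11 of 16 Col6a2-/- libraries, so it passed the filter only through the genotype in which it was higher. Its calls for genotype and for genotype by age, alone or within a count of members, are therefore a description and no support for a direction. The other 8 members reached 1 TPM in all 32 libraries.

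The genotype labels held in the Col6a2 level, which was 6.604 to 51.2 TPM in WT and at most 0.171 TPM in Col6a2-/- libraries. Mitochondrial genes took 31.9% to 46.9% of TPM and Rn7s RNA 20.8% to 30.5%. Relative depth, read from the ratio of coverage to FPKM, ran from 6.78 to 13.7 and was higher at 5 weeks (10.99 ± 1.80 in WT, 10.1 ± 2.47 in Col6a2-/-, SD, n = 8) than at 25 weeks (7.95 ± 1.33 and 8.47 ± 1.38). One library stood apart: replicate 4 of the 5-week Col6a2-/- females had the lowest value of its group in 9 of 9 members, and lay at -9.68 on the first principal component against 19.3 to 58.6 for the other 7 Col6a2-/- libraries of that age. Its relative depth, 13.7, was the highest of all. Values without it are given beside some of the results it moved, not all. The genotype change of C1qc at 5 weeks, for example, went from 1.14 to 1.34 without it. Replicate 1 of the 5-week Col6a2-/- males was the highest of its group in 9 of 9 members.

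Averaged over the 32 libraries, Serping1 had the highest level, 39.2 ± 12.2 TPM (SD, n = 32). C3 came next at 22.7 ± 15.2 TPM, and the 3 C1q chains were close to each other at 16.7 ± 10.2 (C1qa), 14.7 ± 9.39 (C1qb) and 14.4 ± 8.06 TPM (C1qc). C4b had 5.45 ± 3.55, Cfb 4.70 ± 3.21, C2 2.69 ± 1.11 and C3ar1 1.15 ± 0.877 TPM. The means of C3 and C1qa, of the C1q chains, and of C4b and Cfb lay closer together than the SD of either gene. Serping1 exceeded C3 in 29 of 32 libraries, and C1qc exceeded C4b and C2 exceeded C3ar1 in all 32. The order differed between groups: in 5-week Col6a2-/- mice the C1q chains, at 25.0 to 30.7 TPM, stood above C3 at 15.3 TPM. Mean read coverage over the gene was lowest for C2, at 1.43 to 12.1, and for C3ar1, at 2.04 to 23.7, so these 2 rest on the fewest reads.

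At 5 weeks, 8 of the 9 complement genes were higher in Col6a2-/- than in WT muscle and none was lower. The 8 include C3ar1, which passed the filter only through Col6a2-/- libraries, so its call gives no support for a direction. Over all tested genes 23.2% were called higher and 2.14% lower. The members' median change was 1.14, against 0.15 over all tested genes. At 25 weeks 7 of 9 were higher and none lower, where 4.47% of all genes were called higher and 0.234% lower, and the medians were 0.88 and 0.08. Without the library that stood apart the members called stayed at 8 and 7, while all genes called higher went from 2979 to 4436 at 5 weeks and from 573 to 924 at 25 weeks. C3 was not called at 5 weeks, and C2 and C3ar1 were not called at 25 weeks.

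**Figure D1:**
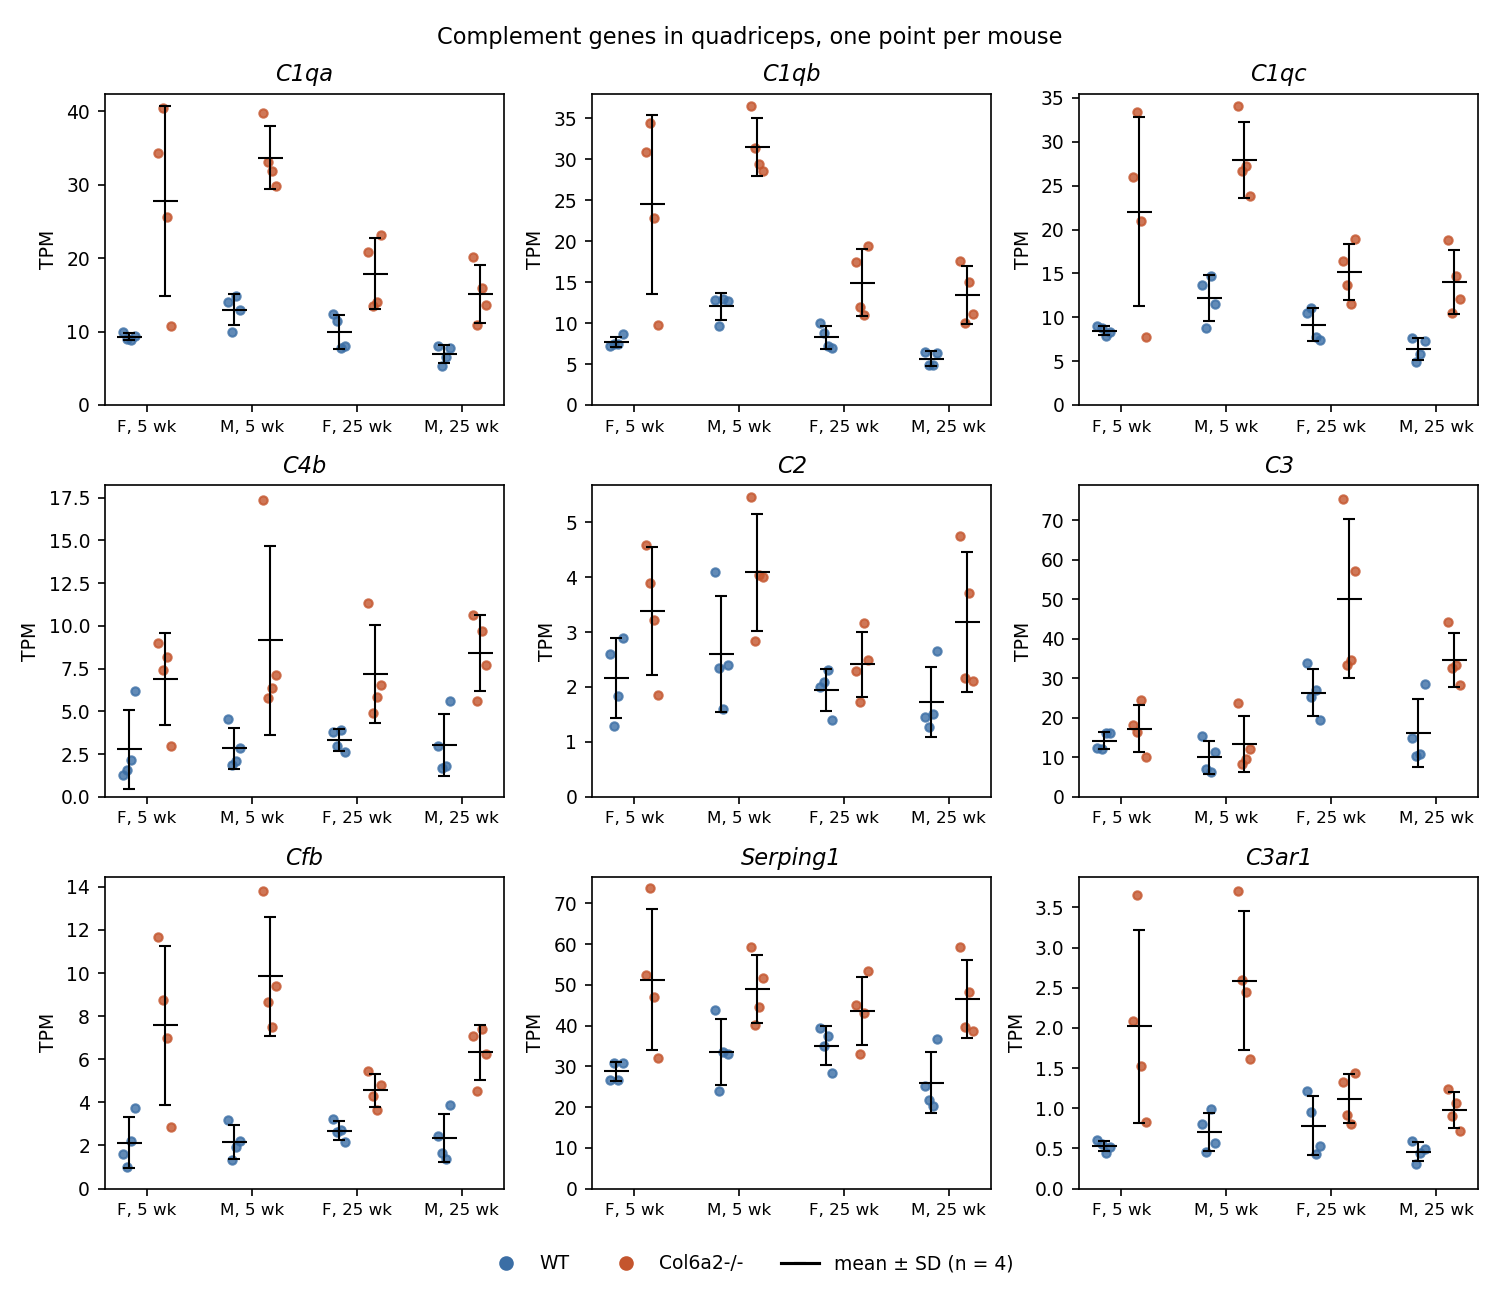
TPM of the 9 complement genes in each of 32 mice, by sex and age (x axis), with WT in blue, Col6a2-/- in orange, and black bars for the mean ± SD of 4 mice. C1q chains and Cfb reach their highest values in 5-week Col6a2-/- muscle, whereas C3 does so in 25-week Col6a2-/- females.

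The C1q chains, which assemble into the recognition molecule of the classical pathway, rose by 1.14 to 1.37 at 5 weeks and by 0.84 to 0.92 at 25 weeks. C1qa had 9.88, 9.04, 8.89 and 9.38 TPM in the WT females at 5 weeks (replicates 1 to 4) and 14.1, 9.99, 14.8 and 12.9 TPM in the males. In Col6a2-/- mice of that age it had 34.3, 40.4, 25.6 and 10.8 TPM in females and 39.7, 33.1, 31.9 and 29.8 TPM in males. Only replicate 4 of the Col6a2-/- females lay in the WT range, and the other 7 lay above every WT mouse. The change of C1qa was 1.33 (SE 0.178, limma Benjamini-Hochberg adjusted p 3.52e-06), a ratio of mean TPM of 2.76, and it was 1.52 without that library.

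C1qb was 7.24 to 12.96 TPM with a median of 9.15 in WT and 9.78 to 36.4 TPM with a median of 30.2 in Col6a2-/- mice at 5 weeks. Its change was 1.37 (SE 0.169, limma adjusted p 1.05e-06). C1qc was 7.91 to 14.6 TPM with a median of 8.86 in WT and 7.77 to 34.0 TPM with a median of 26.3 in Col6a2-/- mice, a change of 1.14 (SE 0.183, limma adjusted p 4.45e-05). As for C1qa, 7 of 8 Col6a2-/- mice lay above the highest WT mouse for each of these chains. No member separated the genotypes without overlap at either age, which 1.18% of genes did upward at 5 weeks and 0.663% at 25 weeks.

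At 25 weeks C1qa had 12.3, 11.5, 7.78 and 8.03 TPM in WT females and 8.00, 5.34, 6.53 and 7.77 TPM in WT males. Col6a2-/- females had 20.8, 13.5, 14.0 and 23.2 TPM and males 20.1, 10.9, 16.0 and 13.5 TPM. Again 7 of 8 Col6a2-/- mice were above the highest WT mouse, and all 8 were above the WT mean of their sex. The change was 0.90 (SE 0.178, limma adjusted p 0.00362) for C1qa, 0.92 (adjusted p 0.00189) for C1qb and 0.84 (adjusted p 0.00815) for C1qc. The 3 chains kept a narrow ratio to each other over all libraries, with C1qa at 1.01 to 1.36 times C1qb and C1qc at 0.795 to 1.25 times C1qb.

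Macrophage markers moved with the C1q chains. Of the 15 genes listed as macrophage markers (among them Csf1r, Adgre1, Cd68 and Lyz2), 14 were called higher in Col6a2-/- at 5 weeks and 11 at 25 weeks. Their median changes were 1.31 and 0.64. Over all tested genes 23.2% and 4.47% were called higher. Which genotype carried each marker past the filter was not counted, and Cx3cr1 reached at most 1.41 TPM (mean 0.374). The counts of macrophage markers are therefore a description and no support for a direction. The summed TPM of the markers was 61.3 to 103.0 in WT and 104.2 to 351 in Col6a2-/- at 5 weeks, and 43.7 to 124 and 107.7 to 202 at 25 weeks. The summed C1q chains stood at 0.377 to 0.427 of the summed markers in 5-week WT, 0.272 to 0.391 in 5-week Col6a2-/-, 0.264 to 0.357 in 25-week WT and 0.270 to 0.339 in 25-week Col6a2-/- mice. The C1q sum per marker sum was thus not higher in Col6a2-/- than in WT at either age, with medians of 0.338 against 0.414 at 5 weeks and 0.317 against 0.344 at 25 weeks. Lyz2 averaged 76.3 TPM and the next highest marker, Tyrobp, 9.75 TPM. The marker sum, and with it this ratio, therefore mostly follows Lyz2 and does not weigh the 15 markers equally. The part of macrophage content in the change of C1q was not tested.

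**Figure D2:**
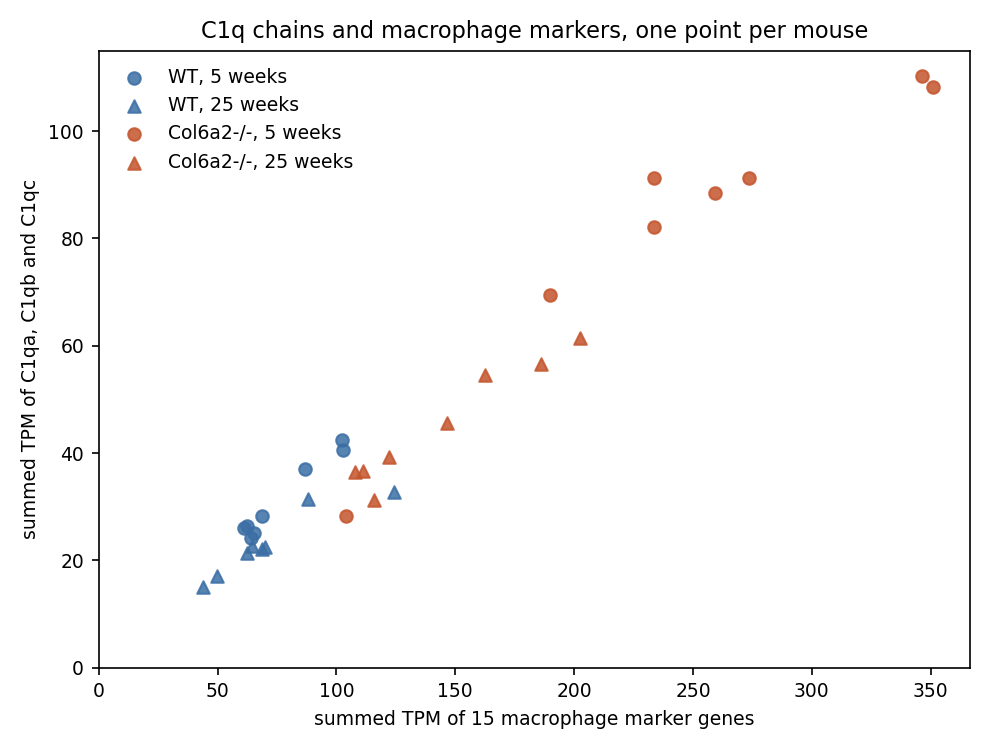
Summed TPM of C1qa, C1qb and C1qc (y axis) against summed TPM of 15 macrophage marker genes (x axis), 1 point per mouse, coloured by genotype and shaped by age. Lyz2 weighs most in the marker sum. C1q rises with the marker sum in both genotypes, with 5-week Col6a2-/- mice at the upper end (up to 110.2 TPM of C1q). Replicate 4 of the 5-week Col6a2-/- females lies among the 25-week mice. The ratio of C1q to marker sum has its highest median in 5-week WT mice, 0.414.

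C4b, whose product carries the classical pathway from C1 to C3, was higher in Col6a2-/- at both ages. At 5 weeks C4b had 1.25, 1.54, 2.16 and 6.21 TPM in WT females and 4.53, 1.84, 2.12 and 2.87 TPM in WT males. In Col6a2-/- mice, females had 9.02, 7.39, 8.18 and 2.99 TPM and males 17.4, 5.78, 6.35 and 7.10 TPM. The genotypes overlapped between 2.99 and 6.21 TPM, which held 2 WT mice (female 4 and male 1) and 2 Col6a2-/- mice (female 4 and male 2), and the other 6 Col6a2-/- mice lay above every WT mouse. The change was 1.23 (SE 0.249, limma adjusted p 0.000671), with a ratio of mean TPM of 2.85.

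At 25 weeks C4b was 1.65 to 5.60 TPM with a median of 2.97 in WT and 4.91 to 11.3 TPM with a median of 7.14 in Col6a2-/- mice. The change was 1.08 (SE 0.249, limma adjusted p 0.0112), and 7 of 8 Col6a2-/- mice lay above the highest WT mouse. C4b shares 7.48% of its 150-base transcript windows with its copy C4a, which lies nearby on chromosome 17 and had 0.211 to 4.15 TPM. How the authors' quantification divided reads between the copies is not given in the sources used here. With both summed, C4b stayed called higher at both ages.

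Cfb encodes factor B, the protease of the alternative pathway convertase, and had the largest change among the members at 5 weeks. WT females had 1.58, 1.01, 2.21 and 3.74 TPM of Cfb and WT males 3.20, 1.33, 1.93 and 2.20 TPM. Col6a2-/- females had 11.7, 8.73, 6.9965 and 2.86 TPM and males 13.8, 8.65, 7.52 and 9.39 TPM. Apart from replicate 4 of the females, every Col6a2-/- mouse exceeded every WT mouse. The change of Cfb was 1.59 (SE 0.196, limma adjusted p 1.07e-06) and the ratio of mean TPM 4.05.

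At 25 weeks Cfb was 1.39 to 3.86 TPM with a median of 2.52 in WT and 3.65 to 7.42 TPM with a median of 5.14 in Col6a2-/- mice. Its change was 0.88 (SE 0.196, limma adjusted p 0.00889). The gene model Gm20547 overlaps Cfb and C2 on the same strand and shares 61.8% of the windows of Cfb and 32.7% of those of C2. It was listed at no more than 0.660 TPM in any library, and adding it to Cfb or to C2 changed no genotype call.

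C2, the classical pathway protease that pairs with C4, showed the smallest called change. It was 1.30 to 4.09 TPM with a median of 2.37 in WT and 1.86 to 5.45 TPM with a median of 3.95 in Col6a2-/- mice at 5 weeks. Only 2 of 8 Col6a2-/- mice lay above the highest WT mouse. The change of C2 was 0.49 (SE 0.161, limma adjusted p 0.0270), and it lost its call without any 1 of 5 libraries (WT female 2, WT male 3, Col6a2-/- female 1, Col6a2-/- female 2 or Col6a2-/- male 1) and under 5 other settings. At 25 weeks C2 was 1.27 to 2.66 TPM in WT and 1.73 to 4.74 TPM in Col6a2-/-, a change of 0.40 (95% interval 0.07 to 0.73, limma adjusted p 0.160). It was called at that age with array weights (0.48, limma adjusted p 0.0167).

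C3, the central component that both pathways cleave, had a different course. At 5 weeks C3 had 12.4, 12.2, 16.0 and 16.2 TPM in WT females and 15.2, 7.05, 6.38 and 11.3 TPM in WT males. Their Col6a2-/- counterparts had 18.2, 16.3, 24.4 and 9.95 TPM in females and 23.7, 8.18, 9.44 and 12.0 TPM in males. The genotypes overlapped between 8.18 and 16.2 TPM, 4 of 8 Col6a2-/- mice lay above the highest WT mouse, and the change of 0.28 (SE 0.225, 95% interval -0.18 to 0.74, limma adjusted p 0.369) did not pass the test.

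At 25 weeks C3 had 33.7, 25.2, 27.0 and 19.3 TPM in WT females and 15.0, 10.4, 10.7 and 28.6 TPM in WT males. Col6a2-/- females had 75.3, 33.4, 34.6 and 57.2 TPM and males 44.3, 32.6, 33.4 and 28.3 TPM. All 8 Col6a2-/- mice were above the WT mean of their sex, and 4 of 8 were above the highest WT mouse, a female. C3 was higher by 0.9997 (SE 0.225, limma adjusted p 0.00980), a ratio of mean TPM of 1.996.

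Markers of the other sources of these components were read beside them. Of all tested genes 23.2% were called higher and 2.14% lower at 5 weeks, and 4.47% and 0.234% at 25 weeks. Of 10 fibroblast markers, 5 were called higher in Col6a2-/- at 5 weeks and 6 at 25 weeks, with median changes of 0.29 and 0.61. With median-of-ratios size factors 4 were higher at 5 weeks (median 0.0996), and 6 were higher and 1 lower at 25 weeks (median 0.48). Their summed TPM was 981 to 1709 in WT and 831 to 2365 in Col6a2-/- at 5 weeks, and 459 to 880 and 871 to 1332 at 25 weeks. None of 8 adipocyte markers was called at either age, with median changes of 0.38 and 0.60 and 7 of 8 positive at each (summed TPM 105.4 to 318 in WT and 159.9 to 490.2 in Col6a2-/- at 5 weeks, 121.6 to 361 and 140.7 to 412 at 25 weeks). Of 8 hepatocyte markers, 6 stayed under 1 TPM in every library and the defining marker Alb averaged 0.325 TPM. Alb reached 3.87 TPM in its highest library. Hp (haptoglobin), at 1.21 to 47.3 TPM, had changes of 1.13 and 1.24 that were not called (limma adjusted p 0.0650 and 0.115). Of 7 neutrophil markers, Ly6g was at 0 in all libraries and 2 were tested, S100a8 (up to 2.06 TPM, changes of 0.31 and 0.30) and S100a9 (up to 2.86 TPM, 0.29 and 0.53), neither of them called, though 1 of them was called at 25 weeks without the library that stood apart, with median-of-ratios size factors and without the 100 most abundant genes. Their summed TPM was 0.313 to 1.38 in WT and 0.371 to 4.45 in Col6a2-/- at 5 weeks, and 0.419 to 3.50 and 0.928 to 5.39 at 25 weeks. All 8 T and B cell markers were under 1 TPM throughout. Of 8 endothelial markers 3 were called higher at 5 weeks (median 0.20) and none at 25 weeks, and none at either age with median-of-ratios size factors. Of 8 skeletal muscle fibre markers, which summed to 22276 to 40189 TPM over all libraries, 3 were called lower at 5 weeks (Ckm, Myh4 and Tnnt3, median -0.19) and none at 25 weeks. With median-of-ratios size factors 5 and 4 were lower, and with quantile normalization 1 and 1. The part of any of these cell types in the members' changes was not tested.

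Serping1, which encodes the inhibitor of C1r and C1s, rose less than the C1q chains. At 5 weeks it had 26.7, 30.8, 26.7 and 30.7 TPM in WT females and 43.7, 23.99, 33.6 and 33.1 TPM in WT males. Col6a2-/- females had 52.4, 73.7, 47.0 and 32.03 TPM and males 59.2, 40.2, 44.4 and 51.6 TPM. Here 6 of 8 Col6a2-/- mice exceeded the highest WT mouse. The change of Serping1 was 0.65 (SE 0.147, limma adjusted p 0.00197), a ratio of mean TPM of 1.61.

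At 25 weeks Serping1 was 20.3 to 39.4 TPM with a median of 31.7 in WT and 32.9 to 59.3 TPM with a median of 44.1 in Col6a2-/- mice, a change of 0.56 (SE 0.147, limma adjusted p 0.0235). This call was lost without any 1 of 6 libraries, which were WT female 4, WT male 2, WT male 3, Col6a2-/- female 1, Col6a2-/- female 4 and Col6a2-/- male 1, with adjusted p of up to 0.0735, and without the filter on low TPM (0.0668).

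C3ar1, the only receptor among the members, was near the lower limit of the test in WT. At 5 weeks it had 0.599, 0.550, 0.447 and 0.520 TPM in WT females and 0.798, 0.460, 0.990 and 0.569 TPM in WT males. Col6a2-/- females had 2.08, 3.65, 1.52 and 0.8289 TPM and males 3.71, 2.59, 2.44 and 1.62 TPM. All Col6a2-/- mice but replicate 4 of the females were above every WT mouse. C3ar1 was higher by 0.98 (SE 0.137, limma adjusted p 6.23e-06), with a ratio of mean TPM of 3.74, and by 1.66 with a pseudocount of 0.1 in place of 1. Since C3ar1 passed the filter only through Col6a2-/- libraries, this test is a description and no support for a direction.

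At 25 weeks C3ar1 was 0.310 to 1.22 TPM with a median of 0.509 in WT and 0.718 to 1.44 TPM with a median of 0.990 in Col6a2-/- mice. Here 3 of 8 Col6a2-/- mice lay above the highest WT mouse, a 25-week female at 1.22 TPM. The change of 0.35 (95% interval 0.07 to 0.63, limma adjusted p 0.142) was not called. It came to 0.74 and was called at a pseudocount of 0.1 (adjusted p 0.0493), and it was also called with array weights (0.0229) and with only the groups compared (0.0381).

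**Figure D3:**
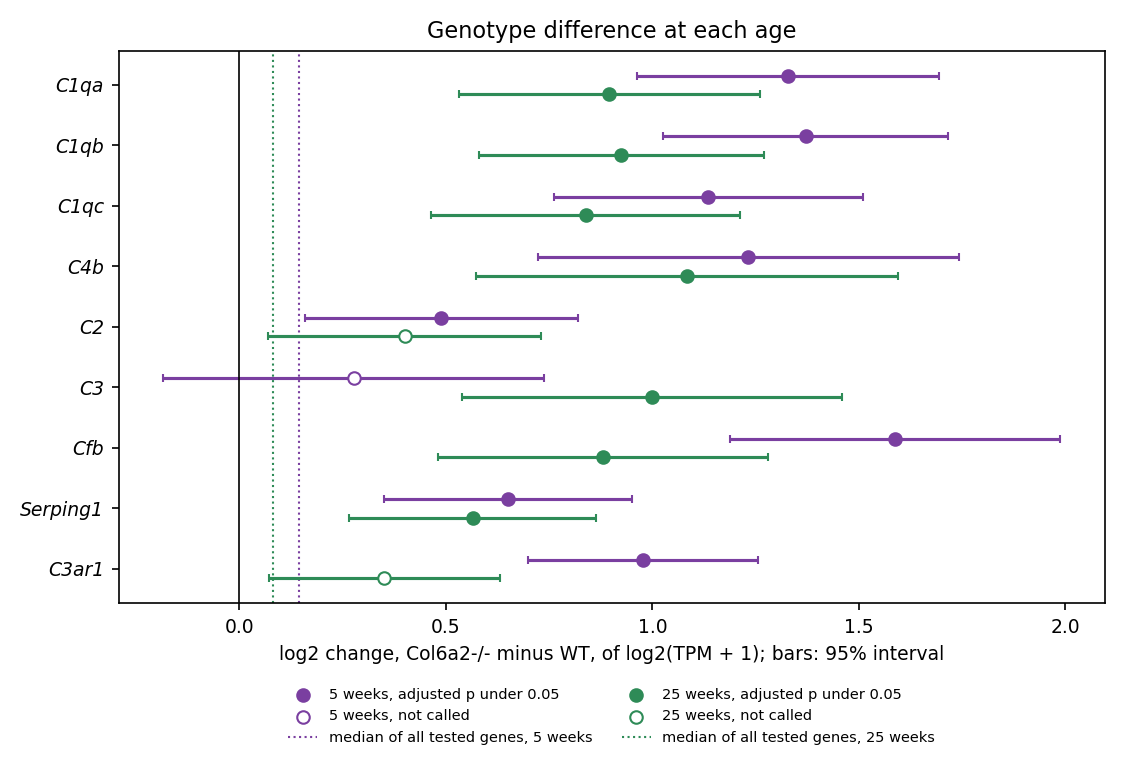
Change of log2(TPM + 1) between Col6a2-/- and WT (x axis) for each complement gene, at 5 weeks (purple) and 25 weeks (green), with bars for 95% intervals from limma. Filled points were called, open points were not, and dotted lines mark the median of all tested genes (0.15 and 0.08). The largest changes are those of Cfb, C1qb and C1qa at 5 weeks and of C4b and C3 at 25 weeks.

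The scale of the libraries bears on these values, since most called genes were higher in Col6a2-/- at 5 weeks (2979 higher and 274 lower). With median-of-ratios size factors the split was 1418 and 1618, and the median of all genes moved from 0.15 to -0.01. Relative to the median of all genes, the 5-week changes were 1.18 for C1qa, 1.23 for C1qb, 0.99 for C1qc, 1.09 for C4b, 0.34 for C2, 0.13 for C3, 1.44 for Cfb, 0.50 for Serping1 and 0.83 for C3ar1. At 25 weeks the split moved from 573 and 30 to 705 and 678. Under each of the 4 rescalings tried, every member kept a positive change at both ages, and the members called were 7 or 8 at 5 weeks and 7 at 25 weeks, all higher.

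Within each sex, the same contrast was read with 4 mice against 4. In 5-week females 7 of 9 members were called higher (12.3% of all genes were), and in 5-week males 6 of 9 (4.55%). Both counts include C3ar1, which passed the filter only through Col6a2-/- libraries and gives no support for a direction. C1qa changed by 1.34 in females and 1.32 in males, and Cfb by 1.40 and 1.78. Serping1 was called in females, at 0.76 (limma adjusted p 0.0178), and had 0.54 in males (adjusted p 0.133). In 25-week males 7 of 9 were called higher (2.91% of all genes), among them C3 at 1.15 (adjusted p 0.0436) and C4b at 1.30 (adjusted p 0.0402). In 25-week females none was called, where limma called 0% of genes higher and 0.00780% lower. Their changes there were 0.21 to 0.87, all positive, and 6 of the 9 had an unadjusted p under 0.05.

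The difference between the sexes was tested itself. No member was called for genotype by sex (0.0156% of genes were), with limma adjusted p of 0.9998 for all 9. The largest difference was that of Cfb, 0.48 higher in males (SE 0.277, unadjusted p 0.0935). No member was called for sex over all groups either, where 3.05% of genes were. C3 had the largest sex difference, -0.54 in males against females (SE 0.159, limma adjusted p 0.0640), and its means were higher in females in each genotype and age, for example 50.1 ± 20.1 against 34.6 ± 6.80 TPM in 25-week Col6a2-/- mice (SD, n = 4).

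Whether the genotype difference changed between the ages was likewise tested. No member was called for genotype by age with limma, and 0.492% of all genes were. Of the members, 3 had an unadjusted p under 0.05. C3ar1 had a smaller genotype difference at 25 than at 5 weeks (-0.63, SE 0.193, p 0.00297, adjusted p 0.217), and so did Cfb (-0.71, SE 0.277, p 0.0162, adjusted p 0.500). C3 had a larger one at 25 weeks (0.72, SE 0.318, p 0.0308, adjusted p 0.618). Without replicate 4 of the 5-week Col6a2-/- females C3ar1 was called at -0.73 (adjusted p 0.0192) and Cfb stood at -0.88 (adjusted p 0.0505), while the number of all genes called went from 63 to 229. The C3ar1 call is a description and no support for a direction, since C3ar1 passed the filter only through Col6a2-/- mice. Of the 15 macrophage markers, 1 was called lower for genotype by age with replicate 4 of those females and 8 without it. The C1q chains had -0.45 to -0.30 with adjusted p of 0.767 and above, and without that library C1qa had -0.62 (adjusted p 0.0947), C1qb -0.63 (0.0602) and C1qc -0.50 (0.208).

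Age was compared within each genotype. These comparisons use the same mice as the genotype comparisons, so their values are not independent of them. In Col6a2-/- mice 1 member rose and 5 fell from 5 to 25 weeks, where 5.41% of all genes were called higher and 28.8% lower. In WT mice 1 member rose and none fell, against 4.47% and 15.3% of all genes. C3 was the member that rose in both genotypes, and the C1q chains, C3ar1 and Cfb were those that fell in Col6a2-/- mice. With median-of-ratios size factors the calls of all genes split into 2249 higher and 2106 lower in Col6a2-/- mice, in place of 694 and 3695, and into 1871 and 1797 in WT mice, in place of 573 and 1963. Under that scaling and the 3 others tried, C3 stayed higher in both genotypes and the C1q chains and C3ar1 stayed lower in Col6a2-/- mice, all called, whereas Cfb lost its call.

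In Col6a2-/- mice C3 averaged 15.3 ± 6.40 TPM at 5 weeks and 42.4 ± 16.1 TPM at 25 weeks (SD, n = 8), a ratio of 2.78. The rise was 1.44 (SE 0.225, limma adjusted p 1.63e-05). All 8 mice of 25 weeks, at 28.3 to 75.3 TPM, lay above all 8 of 5 weeks, at 8.18 to 24.4 TPM, which 0.804% of genes did. In WT mice C3 averaged 12.1 ± 3.80 and 21.2 ± 8.69 TPM, a rise of 0.72 (SE 0.225, limma adjusted p 0.0233), and 5 of 8 older mice lay above the highest younger one. The WT rise was no longer called without WT 5-week male 3 (adjusted p 0.0581), WT 25-week female 1 (0.0520) or WT 25-week male 4 (0.0614), or without the filter on low TPM (0.0632). With age, 5 of 10 fibroblast markers were lower in each genotype and 1 was higher in Col6a2-/-. Of all genes, 15.3% were called lower in WT, and 28.8% lower and 5.41% higher in Col6a2-/- mice. None of 8 adipocyte markers was called, but 7 of 8 were positive in each genotype, with medians of 0.32 in WT and 0.48 in Col6a2-/- mice. Their part in the rise of C3 was not tested.

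In Col6a2-/- mice C1qa averaged 30.7 ± 9.42 TPM at 5 weeks and 16.5 ± 4.34 TPM at 25 weeks (SD, n = 8), and fell by 0.81 (SE 0.178, limma adjusted p 0.000876). C1qb fell by 0.89 (adjusted p 0.000186) and C1qc fell by 0.67 (adjusted p 0.00588). C3ar1 fell by 0.64 (SE 0.137, adjusted p 0.000706), to 0.456 of its 5-week mean TPM. The 25-week values of these genes stayed above the lowest 5-week value, that of replicate 4 of the females, except that 2 of 8 mice were below it for C3ar1. Cfb fell by 0.53 (SE 0.196, adjusted p 0.0358), and this call was lost without any 1 of 7 Col6a2-/- libraries (5-week female 1, female 2 and male 1, 25-week female 2, female 3, male 2 and male 4) and under 7 other settings. Without replicate 4 of the 5-week females Cfb stood at -0.70 (adjusted p 0.00165). Of the 15 macrophage markers, 13 fell with age in Col6a2-/- mice (median -0.71) and 2 in WT (median -0.13). Of all genes, 28.8% were called lower in Col6a2-/- and 15.3% in WT mice, so the WT count was near the share of all genes. The part of the macrophage markers in the fall of C1q and C3ar1 was not tested.

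In WT mice the C1q chains had changes of -0.44 to -0.37 with age that were not called (limma adjusted p 0.0635 to 0.161), and 6 of 8 mice of 25 weeks lay below the lowest of 5 weeks for each chain. They were called lower without replicate 4 of the 5-week Col6a2-/- females, which enters only through the shared spread (adjusted p 0.00852 to 0.0361), and also with array weights and with only the groups compared. The sexes did not go the same way: the C1qa mean was 9.30 and 9.90 TPM in WT females at 5 and 25 weeks and 12.9 and 6.91 TPM in WT males, C1qb and C1qc had the same pattern, and this difference between the sexes was not tested. C3ar1 in WT had -0.01 with age, a sign that turned under rescaling. C4b (0.18 in WT and 0.03 in Col6a2-/-), C2 (-0.23 and -0.32) and Serping1 (-0.05 and -0.13) were not called in either genotype. With replicate 4 of the 5-week females left out, C2 was called lower in Col6a2-/- mice (-0.42, adjusted p 0.0332). The same held with replicate 1 of the 25-week Col6a2-/- males left out (-0.407, adjusted p 0.04775).

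**Figure D4:**
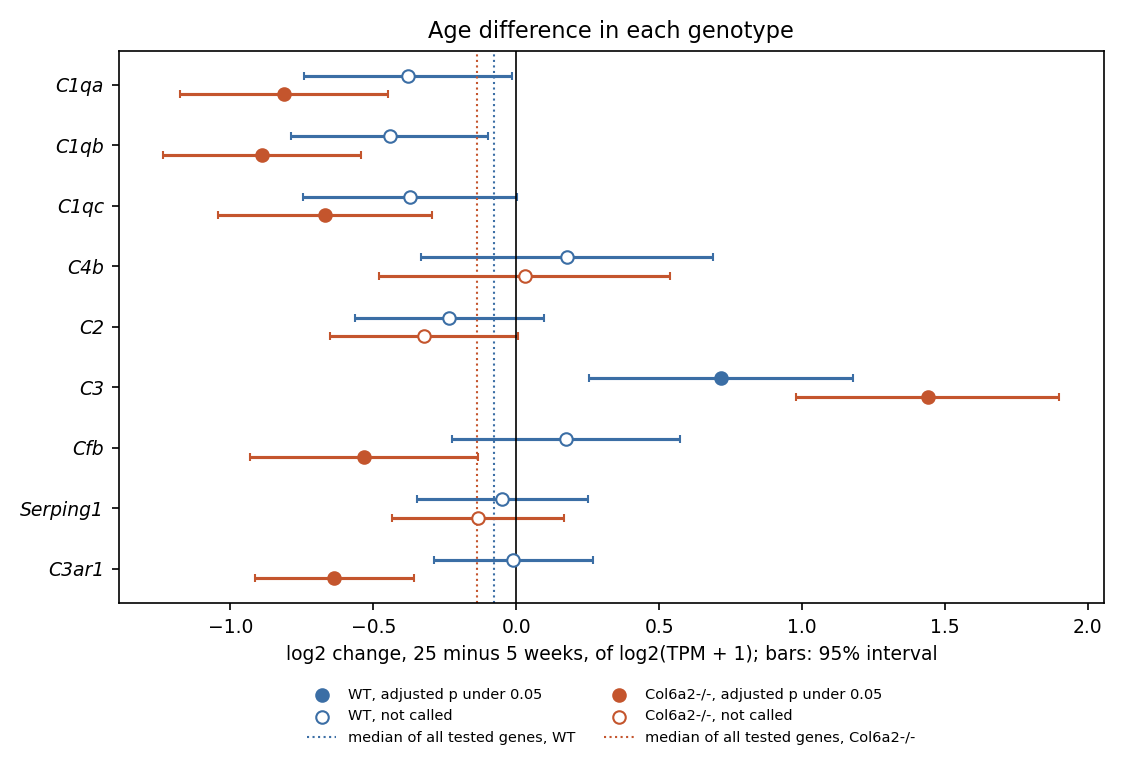
Change of log2(TPM + 1) from 5 to 25 weeks (x axis) for each complement gene in WT (blue) and Col6a2-/- mice (orange), with 95% intervals from limma. Filled points were called, open points were not, and dotted lines mark the median of all tested genes (-0.08 and -0.14). C3 is higher with age in both genotypes, and the C1q chains and C3ar1 are lower in Col6a2-/- mice.

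The rest of the cascade was read from a list of 43 other complement genes, of which 26 were tested. At 5 weeks 15 of the 26 were called higher in Col6a2-/- and none lower (median 0.45), and at 25 weeks 11 higher and none lower (median 0.38), where 23.2% and 4.47% of all genes were called higher. With quantile normalization 12 were higher and 2 lower at 5 weeks, and 10 higher and 1 lower at 25 weeks. Under that setting all genes split into 1413 higher and 1672 lower at 5 weeks and 483 and 365 at 25 weeks. Among recognition molecules and proteases, 7 of 10 were higher at 5 weeks and 6 at 25 weeks. Of regulators 3 of 9 and 2 of 9 were higher, a share at 5 weeks near that of all genes, of receptors 5 of 5 and 3 of 5, and of the 2 tested terminal pathway genes none. These counts include C4a, Itgax and C5ar1, which were called higher at both ages and reached 1 TPM in 2, 0 and 0 of 16 WT libraries and in 15, 8 and 6 of 16 Col6a2-/- libraries. They passed the filter through the genotype in which they were higher, so the counts over the list are a description and no support for a direction. With age, 1 of the 26 rose and 6 fell in Col6a2-/- mice, and 2 rose and 3 fell in WT mice, against 28.8% of all genes called lower in Col6a2-/- and 15.3% in WT mice. In Col6a2-/- mice 1 rose and 10 fell without replicate 4 of the 5-week females, where 685 of all genes were called higher and 4821 lower. With quantile normalization 5 rose and 5 fell, where 2419 of all genes were called higher and 2128 lower.

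The proteases that C1q activates rose with it. C1s1 went from 19.0 ± 3.73 to 29.6 ± 8.11 TPM at 5 weeks (SD, n = 8), a change of 0.59 (limma adjusted p 0.00323), and changed by 0.75 at 25 weeks (adjusted p 0.00240). C1ra changed by 0.63 and 0.61 (adjusted p 0.00172 and 0.0102), and the second copies C1rb (0.51 and 0.49) and C1s2 (0.43 and 0.44) were called at both ages. Reads may be shared within the C1ra and C1rb and the C1s1 and C1s2 pairs, so their division is uncertain. C4a, one of the genes that passed the filter only through the Col6a2-/- libraries, had 0.76 and 0.68, called at both ages. Its tests are likewise a description and no support for a direction. Cfp, which encodes the alternative pathway stabilizer properdin, changed by 0.99 at 5 weeks (adjusted p 3.27e-05) and 0.72 at 25 weeks (adjusted p 0.00742). Masp1, a lectin pathway protease, was called at 5 weeks (0.29, adjusted p 0.0420) and not at 25 weeks (0.23, adjusted p 0.225).

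Cfd, which encodes the factor D (adipsin) that cleaves factor B, had the highest level of the list and the widest spread. It had 113 ± 72.9 TPM in WT and 164 ± 121 in Col6a2-/- mice at 5 weeks, and 123 ± 108 and 262 ± 129 TPM at 25 weeks (SD, n = 8). Its changes of 0.64 and 1.51 were not called with limma (adjusted p 0.409 and 0.122). The collectin Colec12 had 0.43 at 5 weeks with an adjusted p of 0.0506 and was not called at 25 weeks (0.29).

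Of the regulators, Cd55 (decay accelerating factor) changed by 0.59 at 5 weeks (limma adjusted p 7.78e-05) and 0.43 at 25 weeks (adjusted p 0.0113). Clu (clusterin) was called at 5 weeks at 0.76, and Cr1l and C1qbp at neither age. Among receptors Itgax, a subunit of complement receptor 4, went from 0.148 ± 0.0675 to 1.43 ± 0.508 TPM at 5 weeks (SD, n = 8), a change of 1.05 (adjusted p 1.68e-08), and changed by 0.67 at 25 weeks. Its partner Itgb2 changed by 1.23 and 0.72 and the C5a receptor C5ar1 by 0.55 and 0.27, called at both ages. In WT libraries Itgax was at no more than 0.251 TPM and C5ar1 at no more than 0.696 TPM. Both passed the filter only through Col6a2-/- libraries, so their tests are a description and no support for a direction. Itgam (1.02) and Cd93 (0.38) were called at 5 weeks and not at 25 weeks.

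The terminal pathway was scarcely represented. C7 averaged 2.85 TPM and C8g 0.821 TPM, neither was called for genotype at either age, and C8a, C8b and C9 were at 0 in all 32 libraries. C7 was higher with age in WT (0.53, limma adjusted p 0.0389) and in Col6a2-/- mice (0.89, adjusted p 0.000471), and higher in males than in females over all groups (1.505, adjusted p 1.91e-09). Mbl1 and Fcnb were also listed at 0 throughout.

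The members' likeness to each other was described by Pearson's r of log2(TPM + 1) after the mean of each of the 8 groups was removed, over 32 libraries that differ in depth and composition. The 3 C1q chains had r of 0.956 to 0.977 with each other and 0.833 to 0.876 with C3ar1. C4b had 0.893 with Cfb and 0.845 with C3. The lowest value was 0.393, between C2 and C3ar1, followed by 0.425 between C3 and C3ar1. When group means were kept, C3 had r of 0.0876 to 0.137 with the C1q chains.

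By the same measure, the genes most like each member were sought outside the members among genes with a mean of at least 5 TPM. For C1qa they were Csf1r (0.940), Cyba (0.930) and Lyz2 (0.927), for C1qb Csf1r (0.939), Ctss (0.932) and Ctsz (0.910), and for C1qc F13a1 (0.932), Csf1r (0.930) and Cyba (0.922). C3ar1 was most like Samhd1 (0.911), Lyz2 (0.907) and Rabgap1l (0.905). C4b was most like Carhsp1 (0.866), Esyt1 (0.791) and Rarres2 (0.791), Cfb like Carhsp1 (0.870), Npc2 (0.837) and B2m (0.830), and C3 like Cp (0.848), Npc2 (0.815) and Carhsp1 (0.813). Serping1 was most like C1ra (0.926), Eef1a1 (0.892) and C1s1 (0.890), and C2 like Gm5905 (0.790), Zeb2 (0.775) and Gak (0.771).

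Each member was then set against the mean log2 level of the macrophage, fibroblast and adipocyte markers after group means were removed, which made 27 relations over 32 libraries. With the macrophage markers, Pearson's r was highest for C3ar1 (0.949, Spearman's rho 0.949) and the C1q chains (0.930 to 0.937, rho 0.918 to 0.930), with a permutation p of 1e-05, the smallest that 100000 permutations can give, and an adjusted p of 5.4e-05. It was 0.488 (rho 0.466, permutation p 0.0159, adjusted p 0.0195) for C2, 0.558 for C3, 0.560 for C4b, 0.67 for Cfb and 0.771 for Serping1. With the adipocyte markers C3 had r of 0.664 (rho 0.714, permutation p 0.00067, adjusted p 0.00131) and C4b 0.630, whereas C1qa had 0.146 (rho 0.272, permutation p 0.554, adjusted p 0.599) and C3ar1 -0.0508. With the fibroblast markers all 9 had r of 0.568 to 0.878, and the C1q chains (0.841 to 0.878) and Serping1 (0.857) had the highest, so the C1q chains followed both marker lists. Without the 2 libraries farthest from the median of the markers, C3ar1 and the C1q chains kept r of 0.883 to 0.907 with the macrophage markers, C3 kept 0.656 with the adipocyte markers and C2 had 0.383 with the macrophage markers. With the fibroblast markers r fell to 0.705 to 0.77 for the C1q chains, 0.79 for Serping1, 0.649 for Cfb, 0.605 for C3ar1 and 0.496 for C2. It rose to 0.703 for C4b and 0.742 for C3.

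**Figure D5:**
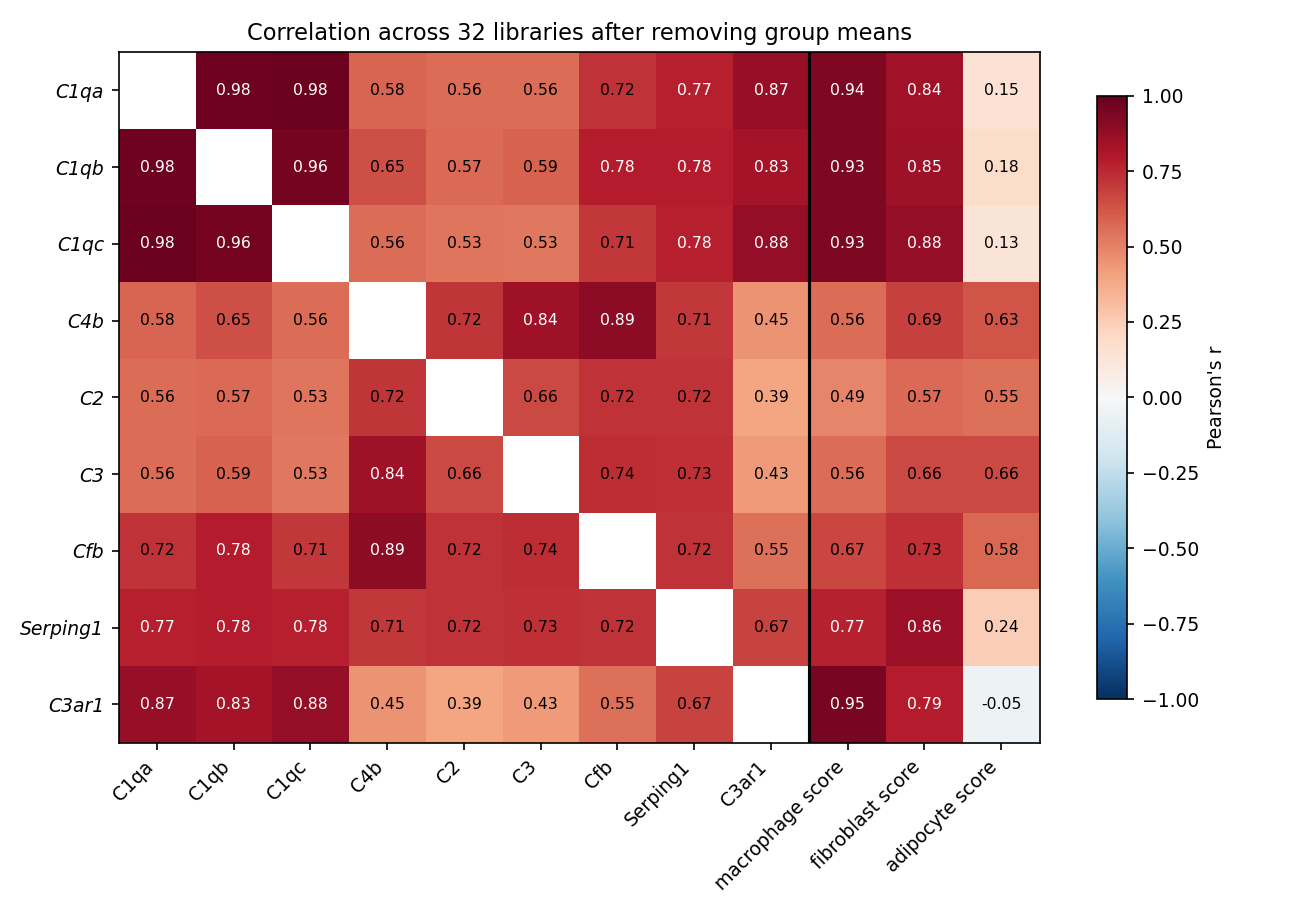
Pearson's r over 32 libraries, after removal of group means, between each pair of complement genes (left of the black line) and between each gene and the mean level of macrophage, fibroblast and adipocyte markers (right of it). The C1q chains and C3ar1 form the darkest block together with the macrophage column, and have r of 0.785 to 0.878 with the fibroblast markers. C4b, C2, C3 and Cfb have r of 0.55 to 0.66 with the adipocyte markers, 0.57 to 0.73 with the fibroblast markers and 0.49 to 0.67 with the macrophage markers.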

How the data were processed

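Quadriceps RNA of 32 mice was sequenced, and each library has 1 deposited table. The submitters' processing notes name FastQC, MultiQC, Trimmomatic, HISAT2, SAMtools and StringTie, and the builds GRCm38 and mm10. Versions, annotation and strand use are not given in the sources used here. Gene-level TPM, FPKM and coverage values were computed by the authors, per the file headers, and TPM sums to the same total in every library. FPKM and coverage, as deposited, were used only to compare depth between libraries and to give the coverage of each member.

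TPM was summed per gene ID. Values were fitted as log2(TPM + 1) with limma 3.58.1 in R 4.3.3 (a mean for each of 8 groups, eBayes with trend, two-sided, Benjamini-Hochberg over 12817 genes). Contrasts weighted the sexes equally. The steps were tested on simulated data. Replicate numbers were checked as pairs: of 112 same-numbered pairs 35 had r over 0.1 (mean 0.0308), and of 336 differently numbered pairs 65 (mean -0.0101). Replicate numbers were not treated as pairs in the main fit, and a replicate block was tried as an alternative. Alternatives covered pseudocount, filter, scaling, weights, block and each library left out, and others added after seeing the data summed C4a with C4b and Gm20547 with Cfb or C2 and rescaled the lists. The members, the lists of other complement and marker genes and the rule for named genes (all members, the 4 most abundant other complement genes per role, and those called) were chosen with earlier results of these data known. Of the genes this rule names, 1 is not reported here. Python 3.11.15, pandas 2.3.3 and matplotlib 3.10.9 were also used.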

Additional observations from a re-analysis of the deposited data

Results flagged for a closer look

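Each member was screened for a mouse far from the other 3 of its group, by the gap to the nearest mouse over the range of the group, against Dixon's 95% critical value. Of 72 combinations of member and group 3 passed, and chance alone gives about 1 in 20. C4b was 17.4 TPM in replicate 1 of the 5-week Col6a2-/- males against 5.78 to 7.10 TPM in the others. C1qb was 9.61 TPM in replicate 2 of the 5-week WT males against 12.7 to 12.96 TPM, and 8.68 TPM in replicate 4 of the 5-week WT females against 7.24 to 7.43 TPM.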

How the results depend on the processing

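Members called for genotype numbered 6 to 8 at 5 weeks and 6 to 9 at 25 weeks over the other settings, and 7 to 8 and 6 to 7 with each library left out. Under the filter of at least 5 TPM in 4 libraries C2 and C3ar1 were not tested, so fewer than 9 members could be called there. Those called for age in Col6a2-/- numbered 5 to 6, and 5 to 7 with each library left out. For age in WT, where 1 was called, the count was 2 with a pseudocount of 0.1, 0 without the filter on low TPM, 4 with array weights and 4 with only the groups compared, and 0 to 4 with each library left out. For genotype by age, where none was called, it was 1 with quantile normalization, 1 with array weights and 0 to 1 with each library left out, and the gene was C3ar1. As C3ar1 passed the filter only through Col6a2-/- libraries, that call gives no support for a direction. The replicate block changed no member's call at any of the 5 comparisons (8, 7, 0, 1 and 6 called).

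Signs turned only among changes that were not called. C3ar1 with age in WT was 0.0321 with median-of-ratios size factors, 0.0425 without mitochondrial and Rn7s genes, 0.0176 without the 100 most abundant genes and 0.143 with quantile normalization. Serping1 with age in WT was 0.0701, 0.0846, 0.0304 and 0.00386 under the same settings, and with age in Col6a2-/- 0.0575 with median-of-ratios size factors and 0.00709 without the 100 most abundant genes. C4b with age in Col6a2-/- was -0.0143 with array weights. With each library left out, C3ar1 with age in WT ran from -0.0658 to 0.0393, Serping1 with age in WT from -0.135 to 0.0189 and by genotype and age from -0.186 to 0.0106, and C4b with age in Col6a2-/- from -0.120 to 0.194 and by genotype and age from -0.330 to 0.0161. The cause was not tested. Of the other single values 452 kept sign and call under the other settings, 14 lost and 13 gained a call. Read coverage was lowest for C2 and C3ar1.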
